A study of Mus musculus with 9 samples.

Results

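Mitochondrial ribosomal proteins are encoded in the nucleus, made in the cytosol and carried into mitochondria, where they build the ribosome that translates the few messages of mitochondrial DNA. The genes were chosen by name: every gene of the deposited table whose symbol is Mrpl (large subunit) or Mrps (small subunit) followed by a number and, where present, a letter, with pseudogenes left out. This gave 77 genes of 18657, 48 named Mrpl and 29 named Mrps. Genes with a mean value under 10 were not tested, which left 76 of the 77 and 14437 genes in all.

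RNA came from the kidney cortex of male littermates on a mixed C57BL/6 and FVB background. All mice, the controls included, carried the floxed Vhl allele on both copies. Control mice without Cre formed the group con, with 3 libraries from 6 mice. VHLΔPT mice also carried Cre under the promoter of Slc5a2 (SGLT2), the glucose transporter of the early proximal tubule, so that Vhl, the factor that marks HIF-1α for degradation, was deleted in those cells; this group had 2 libraries from 4 mice. In con/STZ and VHLΔPT/STZ, with 2 libraries from 4 mice each, diabetes had been induced at 12 weeks of age by streptozotocin (STZ), a toxin of the insulin-producing beta cell, at 100 mg/kg on 2 consecutive days, while the other groups received buffer; kidneys of all groups were taken 10 weeks later. Each library was a pool of the RNA of 2 mice, so the spread between libraries is a spread between pools. The values are gene counts after quantile normalization, which gives every library the same distribution of values and leaves a total of between 21951722 and 21952234 in each, so that the original depth is unknown. Differences are on the scale of log2(value + 1) and were tested with limma in a single fit of the 4 group means, with Benjamini-Hochberg adjustment over all genes tested; a gene passed where the adjusted p was under 0.05.

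The mitochondrial ribosome makes the 13 proteins of mitochondrial DNA, which are core subunits of the respiratory chain and of ATP synthase. Its large subunit joins amino acids and its small subunit reads the message. Many of its proteins have a counterpart in the bacterial ribosome, and others are found only in mitochondria. Cells of the proximal tubule, which fill most of the kidney cortex, are rich in mitochondria and depend on respiration for the reabsorption of filtered solutes. Neither the 13 messages nor the 2 ribosomal RNAs of mitochondrial DNA were analysed here.

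The genes of the family are spread over the chromosomes, and some start near a gene on the opposite strand, as described below. RefSeq promoters on GRCm38.p6, from 250 bases before to 50 bases after the start, were matched by symbol for 68 of the 77 genes, and searched on both strands for letters that are known to bind 3 factors of nuclear genes for mitochondrial proteins. The letters were GCGCANGCG for NRF1, CCGGAAG for ETS factors such as GABPA, and AAGATGGC for YY1; none of the 3 contains another. The 100 bases before the start are shown, in the direction of the gene, for the 3 genes with the smallest p in con/STZ vs con whose stretch holds any of these letters and no annotated exon. For Mrpl44 and Mrpl36, the genes with the smallest p whose stretch does overlap an exon of another transcript, 28 bases around the match are shown; Mrpl44 has the smallest p of the family, and Mrpl36 adds the YY1 letters. Capitals mark the letters found, on either strand.
Mrpl43, chr19:45006443-45006542, - strand, with ETS letters in 2 places: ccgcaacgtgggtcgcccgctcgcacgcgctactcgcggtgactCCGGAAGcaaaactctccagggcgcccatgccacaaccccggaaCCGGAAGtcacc
Mrps22, chr9:98601680-98601779, - strand, with ETS letters: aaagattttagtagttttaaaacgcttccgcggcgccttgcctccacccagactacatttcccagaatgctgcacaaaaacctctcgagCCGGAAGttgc
Mrpl45, chr11:97315616-97315715, + strand, with NRF1 letters: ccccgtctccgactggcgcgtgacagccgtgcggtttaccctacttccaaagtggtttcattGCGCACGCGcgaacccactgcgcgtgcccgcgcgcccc
Mrpl44, chr1:79775974-79776001, + strand, with NRF1 letters: gaagcacttGCGCACGCGcagtacacta
Mrpl36, chr13:73330969-73330996, + strand, with YY1 letters on the other strand: gtgaccttacGCCATCTTtcttcctggc

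The NRF1 letters were in 16 of the 68 promoters (23.5%), against 6.25% of the 32851 mouse promoters of the same length. ETS letters were in 23 (33.8%, against 8.86%) and YY1 letters in 12 (17.6%, against 2.75%). At least 1 of the 3 was in 41 promoters, or 60.3%, against 16.0% of all. The promoters of the family were also richer in G and C, with a median of 58.2% against 52.7%. The CCAAT box was in 39.7% of them against 37.4% of all, and the GC box (GGGCGG) was in 34 of the 68, where 35.7% of all promoters held it. For each gene of the family a single promoter was taken, the nearest to its annotated 5′ end. The comparison set held all listed promoters, whether or not their gene was tested here. The windows of Mrpl46 and Mrps11 overlap, so their shared bases count in both. A match is a description of the letters in this window and was not tested as a site of binding.

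Levels of different genes were compared per length. Per kilobase of merged exon, the highest mean value over the 9 libraries belonged to Mrpl12, at 3041, followed by Mrps21 at 2438 and Mrpl34 at 2187. Mrpl12 is the counterpart of the bacterial stalk protein L7/L12 and is also known to bind the mitochondrial RNA polymerase. Its value, without scaling to length, was 4586, 5598 and 6695 in the 3 con libraries, 3978 and 4599 in VHLΔPT, 3713 and 4056 in con/STZ, and 4019 and 4687 in VHLΔPT/STZ. Both con/STZ libraries lay below all con libraries, whereas the higher library of each of the other groups reached into the con range; the difference passed in con/STZ (log2 change −0.52 ± 0.16, SE; limma adjusted p = 0.0378) and not in VHLΔPT (−0.38 ± 0.16, adjusted p = 0.161) or VHLΔPT/STZ (−0.36 ± 0.16, adjusted p = 0.199).

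At the other end were Mrpl53 and Mrpl23. Mrpl53, a protein of the large subunit known only from mitochondria, was listed at 0 to 1.56 in all 9 libraries and was not tested. Of its 790 exon bases, 88.0% are shared with a predicted protein-coding gene on the same strand. Reads of such shared bases are commonly left uncounted or given to only 1 of the genes, and how they were treated here is not stated, so the low value is uncertain. Mrpl23, the counterpart of a protein at the exit of the bacterial ribosome, was lowest among the genes tested, with a mean value of 136. It stood at 128, 127 and 189 in con, 99.7 and 111 in VHLΔPT, 117 and 153 in con/STZ, and 149 and 152 in VHLΔPT/STZ. Only its VHLΔPT libraries lay below all of con, and it passed in no comparison.

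Streptozotocin diabetes in control mice was accompanied by lower values across the family. In con/STZ, 46 of the 76 genes fell and none rose, against a background of 14.1% of all genes tested that fell. The median log2 change was −0.46, with the middle 50% of the genes between −0.54 and −0.37 and single genes from −0.81 to 0.10, while the median over all genes was −0.02. The value was below con in 75 of the 76 genes, with Mrps6 as the exception. Both con/STZ libraries lay below all con libraries in 69 genes, where 30.0% of all genes tested did so. With a fold change over 1.5 required as well, 10 genes fell, against a background of 6.87%. Standard errors ran from 0.08 to 0.26, with a median of 0.13. The count of 46 was 7 without con/STZ library 1, 10 without con/STZ library 2, and 32 without con library 3; 5 genes, Mrpl16, Mrpl36, Mrpl38, Mrpl44 and Mrps7, passed in all 9 fits that left out a single library.

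**Figure D1:**
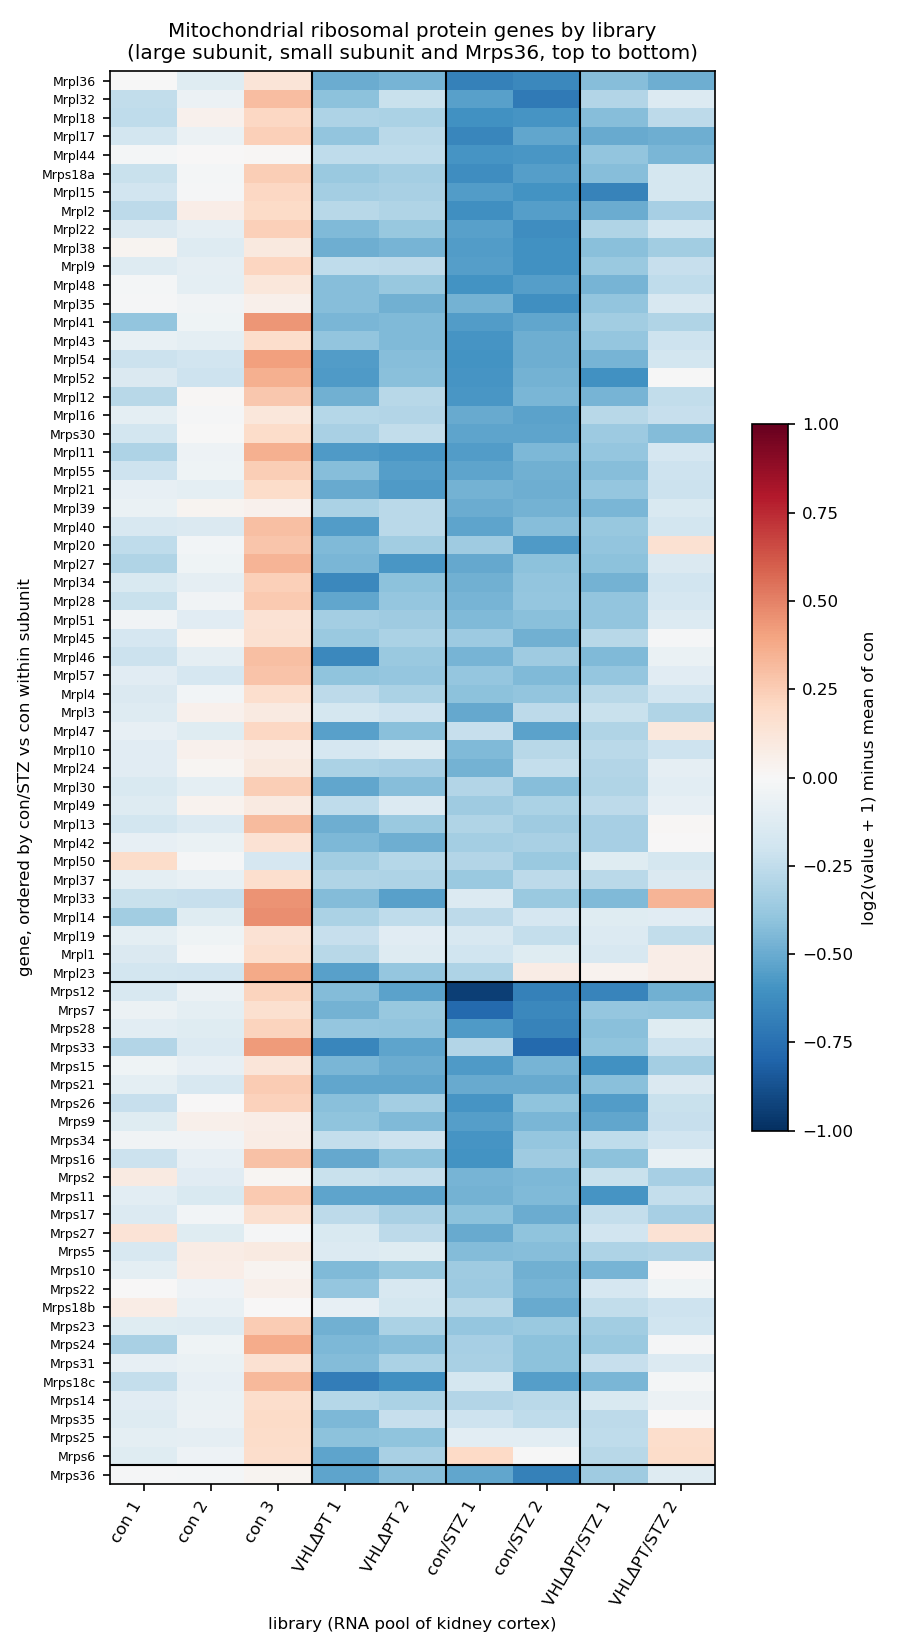
The 76 genes tested (rows; large subunit, small subunit, and Mrps36 at the foot) in the 9 libraries (columns), as log2(value + 1) minus the mean of the 3 con libraries, with blue for lower and red for higher. The con/STZ columns are blue in nearly every row, con 3 is the reddest column, and VHLΔPT/STZ 2 is paler than VHLΔPT/STZ 1.

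The difference with the smallest p belonged to Mrpl44, a protein of the large subunit with the fold of an RNase III enzyme, mutated in a human infantile cardiomyopathy (chr1:79776018-79781445, + strand, GRCm38). Its value was 1369, 1386 and 1398 in con, 1162 in each VHLΔPT library, 917 and 922 in con/STZ, and 1053 and 1006 in VHLΔPT/STZ. The 4 groups did not overlap, with con highest, VHLΔPT next, then VHLΔPT/STZ, and con/STZ lowest. The log2 change was −0.59 ± 0.08 in con/STZ (limma adjusted p = 0.00274), −0.43 ± 0.08 in VHLΔPT/STZ (adjusted p = 0.0453) and −0.25 ± 0.08 in VHLΔPT (adjusted p = 0.0877). Its promoter holds the NRF1 letters shown above.

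In con/STZ, small-subunit proteins with a bacterial counterpart ran from the lowest to the highest log2 change of the family, −0.81 to 0.10. Mrps12, the counterpart of S12, the protein of the decoding centre in which bacteria acquire resistance to streptomycin, had the lowest log2 change of the family (chr7:28739641-28741820, - strand). It stood at 1003, 1073 and 1304 in con, 827 and 774 in VHLΔPT, 584 and 701 in con/STZ, and 707 and 803 in VHLΔPT/STZ. All 6 libraries of the other groups lay below con, and the change passed in con/STZ (−0.81 ± 0.14, limma adjusted p = 0.00527). It missed in VHLΔPT/STZ (−0.57 ± 0.14, adjusted p = 0.063) and in VHLΔPT (−0.48 ± 0.14, adjusted p = 0.0758). Its start lies 172 bases from that of Sars2, the mitochondrial seryl-tRNA synthetase, which is transcribed the opposite way and had a log2 difference of −0.40 in con/STZ (adjusted p = 0.0584).

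Mrps7, the counterpart of S7 in the head of the small subunit (chr11:115603925-115608036, + strand), had 2846, 2772 and 3321 in con, 2140 and 2278 in VHLΔPT, 1736 and 1898 in con/STZ, and 2277 and 2258 in VHLΔPT/STZ. Here con/STZ was lowest, and the VHLΔPT and VHLΔPT/STZ libraries lay together between it and con. The log2 change was −0.71 ± 0.10 in con/STZ (limma adjusted p = 0.00306), −0.43 ± 0.10 in VHLΔPT (adjusted p = 0.0532) and −0.39 ± 0.10 in VHLΔPT/STZ (adjusted p = 0.0718).

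In the large subunit, Mrpl36, a small zinc-binding protein that has a bacterial counterpart (chr13:73328513-73332178, + strand), stood at 1072, 987 and 1176 in con, 762 and 777 in VHLΔPT, 672 and 689 in con/STZ, and 801 and 766 in VHLΔPT/STZ. No library of another group reached con. It fell in con/STZ (−0.66 ± 0.10, limma adjusted p = 0.00351) and in VHLΔPT (−0.48 ± 0.10, adjusted p = 0.0457), and had −0.46 ± 0.10 in VHLΔPT/STZ (adjusted p = 0.0542). Mrpl38, a mitochondria-specific protein of the central protuberance (chr11:116131817-116138868, - strand), had 2704, 2423 and 2828 in con, 1884 and 1920 in VHLΔPT, 1798 and 1737 in con/STZ, and 1981 and 2080 in VHLΔPT/STZ. Its groups did not overlap either, with con/STZ lowest and VHLΔPT/STZ nearest to con. It fell in con/STZ (−0.58 ± 0.09, adjusted p = 0.00396) and VHLΔPT (−0.48 ± 0.09, adjusted p = 0.0375).

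Mrpl16, which in bacteria lies beside the tRNA binding sites (chr19:11770391-11774960, + strand), had values of 1578, 1669 and 1821 in con, 1382 and 1379 in VHLΔPT, 1192 and 1165 in con/STZ, and 1391 and 1438 in VHLΔPT/STZ. Con/STZ stood apart from all other libraries on the low side (−0.52 ± 0.09, limma adjusted p = 0.00516). Mrpl35, another protein with a bacterial counterpart (chr6:71812997-71826969, - strand), had 1140, 1123 and 1190 in con, 855 and 826 in VHLΔPT, 827 and 751 in con/STZ, and 874 and 1027 in VHLΔPT/STZ. It fell in con/STZ (−0.55 ± 0.10, adjusted p = 0.00661) and in VHLΔPT (−0.45 ± 0.10, adjusted p = 0.0488). Mrpl48, a mitochondria-specific protein of the central protuberance (chr7:100545751-100608301, - strand), had 899, 853 and 985 in con, 678 and 699 in VHLΔPT, 602 and 623 in con/STZ, and 659 and 763 in VHLΔPT/STZ. All of its other libraries lay below con, and it fell in con/STZ (−0.57 ± 0.10, adjusted p = 0.00661).

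**Figure D2:**
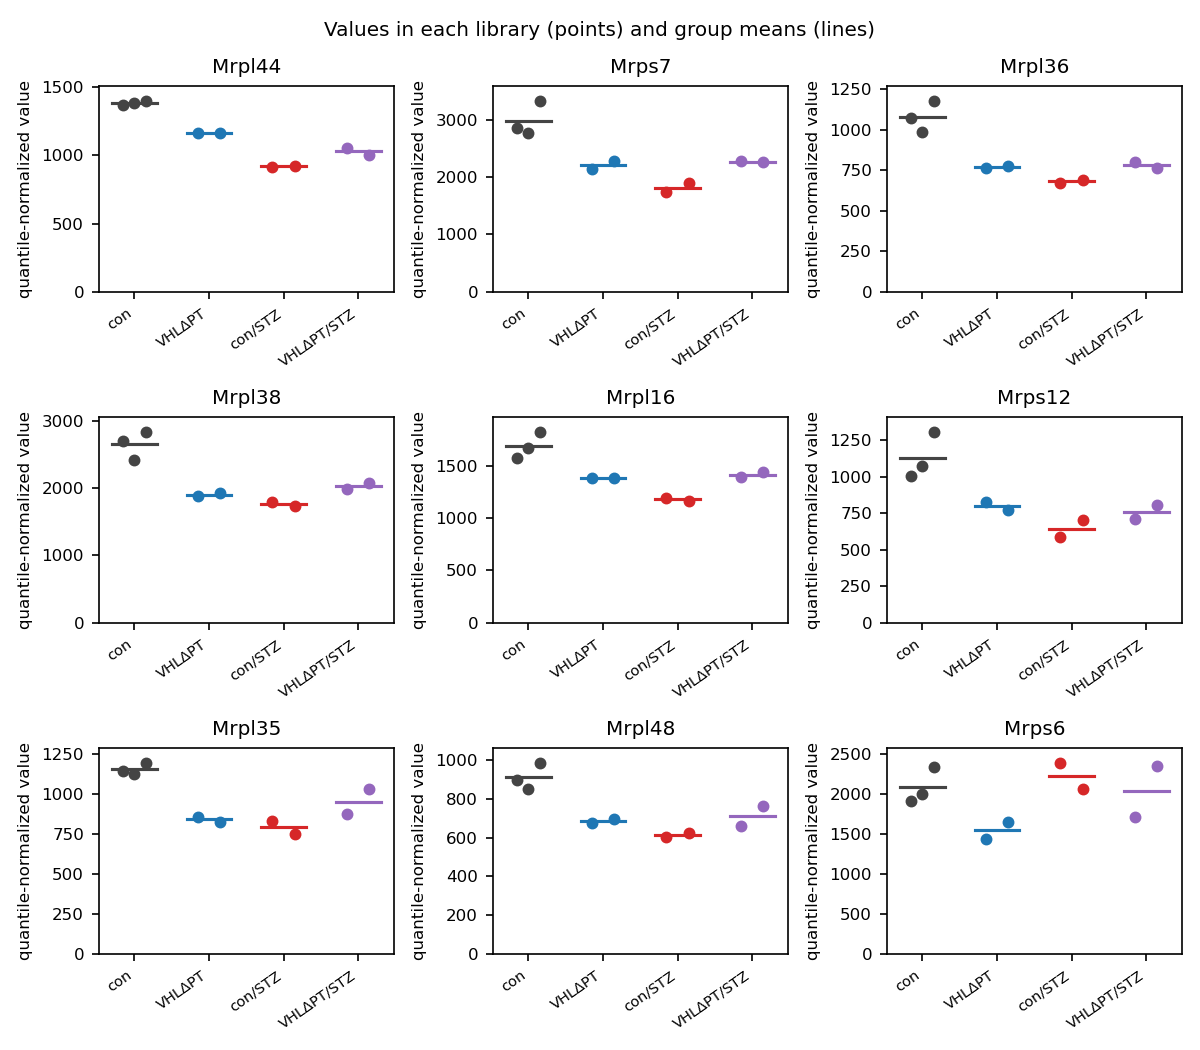
Quantile-normalized value (vertical axis from 0) of the 8 genes with the smallest p in con/STZ vs con, and of Mrps6, in each library (points), with the mean of each group (lines). In the first 8 panels both con/STZ libraries lie below all 3 con libraries, and in the panel of Mrps6 they reach 2385 and 2067 against 1907 to 2340 in con.

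Mrps6, the counterpart of bacterial S6 (chr16:92058270-92112227, + strand), departed from the rest of the family. It had 1907, 1999 and 2340 in con, 1438 and 1654 in VHLΔPT, 2385 and 2067 in con/STZ, and 1713 and 2355 in VHLΔPT/STZ. The con/STZ libraries overlapped con (0.10 ± 0.15, limma adjusted p = 0.656), while the VHLΔPT libraries lay below it (−0.43 ± 0.15, adjusted p = 0.125). Mrps6 shares 159 exon bases, 10.4% of its own, with Slc5a3 on the same strand. Slc5a3, the sodium-coupled importer of the osmolyte myo-inositol, stood at 1816, 1992 and 1909 in con, 2789 and 2689 in VHLΔPT, 6211 and 5450 in con/STZ, and 3791 and 3226 in VHLΔPT/STZ. Its con/STZ libraries were far above all others (log2 change 1.61 ± 0.10, adjusted p = 0.00047). The value of Mrps6 is uncertain for this reason, and the part of the shared bases in it was not tested.

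Vhl deletion without diabetes was accompanied by values below con in all 76 genes, of which 4 passed the test and none rose, against a background of 0.658% of all genes tested. The median log2 change was −0.40, with the middle 50% between −0.48 and −0.29 and single genes from −0.65 to −0.13; the median over all genes was −0.02. At an unadjusted p under 0.05 the count was 58, against 13.2% of all genes tested that were lower at that level. Both VHLΔPT libraries lay below all con libraries in 71 of the 76 genes, against 24.8% of all genes tested. The 4 that passed were Mrpl35, Mrpl36 and Mrpl38, given above, and Mrpl21, which has a bacterial counterpart (chr19:3282901-3292837, + strand). Mrpl21 had 855, 844 and 1026 in con, 639 and 612 in VHLΔPT, 650 and 643 in con/STZ, and 693 and 780 in VHLΔPT/STZ. VHLΔPT was its lowest group (−0.53 ± 0.11, limma adjusted p = 0.0474), just below con/STZ (−0.49 ± 0.11, adjusted p = 0.0153). All 4 also passed in con/STZ; the comparisons share the con libraries. The count of 4 was 0 without con library 1, without con library 3, and without any single library of VHLΔPT or con/STZ, and it was 8 without either VHLΔPT/STZ library.

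In VHLΔPT/STZ, 1 of the 76 genes passed against con, Mrpl44, and none rose, against a background of 0.464%; at an unadjusted p under 0.05 the count was 30, against 12.2% of all genes tested. The median log2 change was −0.27, with the middle 50% between −0.32 and −0.19 and single genes from −0.57 to 0.05, the last being Mrpl23. Both libraries lay below all con libraries in 36 genes, against 20.4% of all genes tested. The call of Mrpl44 was lost in each of the 9 fits that left out a library. After Mrpl44, the smallest p values belonged to Mrpl36 and Mrpl38, given above, and to Mrps15, which has a bacterial counterpart (chr4:126046925-126055532, + strand). Mrps15 stood at 1047, 1021 and 1172 in con, 783 and 766 in VHLΔPT, 726 and 779 in con/STZ, and 709 and 853 in VHLΔPT/STZ. The 3 altered groups overlapped each other and not con, and the log2 change in VHLΔPT/STZ was −0.47 ± 0.11 (limma adjusted p = 0.0594).

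**Figure D3:**
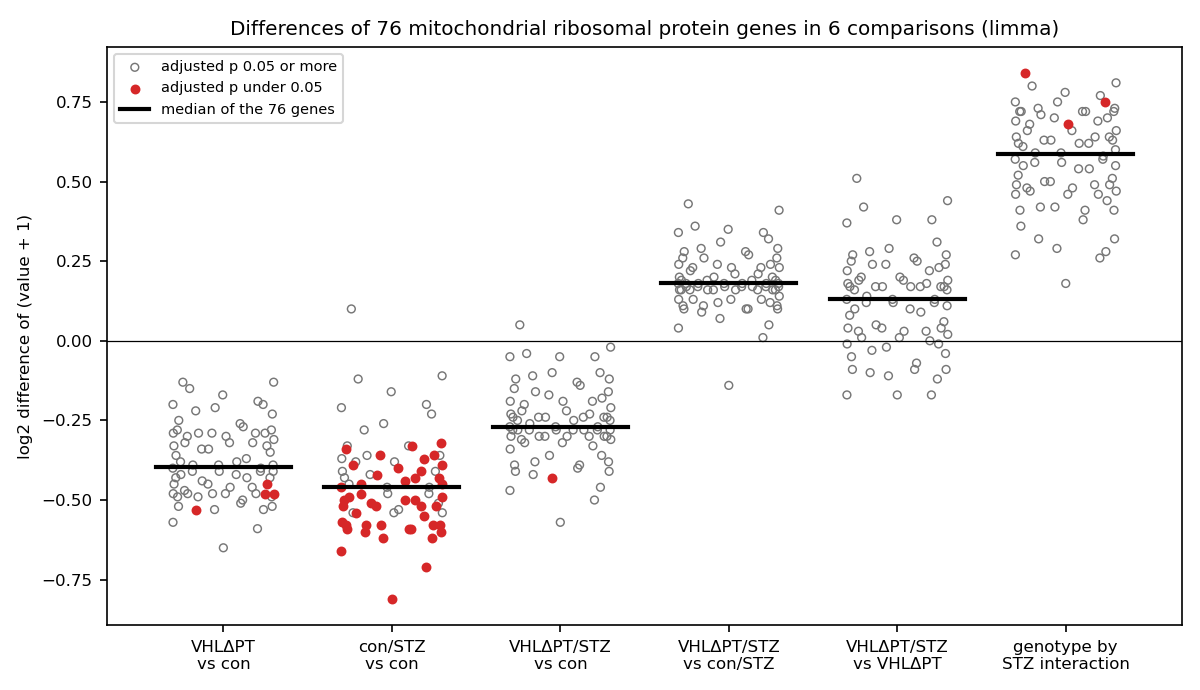
Log2 difference of each of the 76 genes (points) in the 6 comparisons, with genes at an adjusted p under 0.05 filled in red and the median as a black line. The medians against con are −0.40, −0.46 and −0.27, and those of VHLΔPT/STZ against con/STZ and against VHLΔPT, and of the genotype by STZ interaction, are 0.18, 0.13 and 0.58.

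Within diabetes, the value was higher in VHLΔPT/STZ than in con/STZ in 75 of the 76 genes, but by a median log2 difference of only 0.18, and no gene passed the limma test, against a background of 0.00693% of all genes tested; 10 genes were higher at an unadjusted p under 0.05, as were 3.09% of all genes tested. The median was 0.09 without VHLΔPT/STZ library 2 and 0.29 without library 1. Both VHLΔPT/STZ libraries lay above both con/STZ libraries in 45 genes, against 18.7% of all genes tested. The 77 cytosolic ribosomal proteins described below had the same median of 0.18, from 0.01 to 0.91. The 77 respiratory chain and ATP synthase genes had 0.08, from −0.15 to 1.4. In the family, the smallest p values belonged to Mrps27, a protein of the small subunit with pentatricopeptide repeats, and to Mrps36. Mrps27 (chr13:99344786-99415562, + strand) had 687, 574 and 621 in con, 564 and 522 in VHLΔPT, 442 and 474 in con/STZ, and 549 and 690 in VHLΔPT/STZ. Its VHLΔPT/STZ libraries spanned the range of con (log2 difference from con/STZ 0.43 ± 0.14, adjusted p = 0.744).

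Mrps36 keeps its old name, although its product is now known as a subunit of the α-ketoglutarate dehydrogenase complex and not of the ribosome (chr13:100735955-100744659, - strand). It had 548, 545 and 564 in con, 383 and 411 in VHLΔPT, 384 and 345 in con/STZ, and 432 and 506 in VHLΔPT/STZ. The VHLΔPT/STZ libraries lay between con and the other altered groups (log2 difference from con/STZ 0.36 ± 0.12, limma adjusted p = 0.744).

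Among mice with Vhl deletion, STZ was accompanied by a higher value in 59 of the 76 genes and a lower one in 17. The median difference was 0.13, no gene passed the limma test, against a background of 0.00693%, and 2 genes were higher at an unadjusted p under 0.05, where 5.15% of all genes tested were. The median was 0.04 without VHLΔPT/STZ library 2 and 0.23 without library 1. Both VHLΔPT/STZ libraries were above both VHLΔPT libraries in 30 genes, against 23.6% of all genes tested. Both were below in 8 genes, and the share of all genes in that direction was not computed. The 2 smallest p values were those of Mrpl42 and Mrps25, both mitochondria-specific. Mrpl42 (chr10:95480805-95501940, - strand) had 2303, 2330 and 2698 in con, 1784 and 1735 in VHLΔPT, 1922 and 1945 in con/STZ, and 1935 and 2444 in VHLΔPT/STZ, a log2 difference between the last group and VHLΔPT of 0.31 ± 0.13 (adjusted p = 0.436). Its VHLΔPT/STZ library 2 was far above library 1. Mrps25 (chr6:92169525-92184033, - strand), which shares 69.8% of its exon bases with Nr2c2 on the opposite strand, had 802, 803 and 975 in con, 643 and 646 in VHLΔPT, 794 and 795 in con/STZ, and 717 and 970 in VHLΔPT/STZ. Its log2 difference was 0.37 ± 0.16 (adjusted p = 0.436), and con/STZ lay close under con.

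The genotype by STZ interaction asks whether the change with STZ differed between genotypes, and is the change with STZ in mice with Vhl deletion minus that in control mice. It was above 0 in all 76 genes, with a median of 0.58 and single genes from 0.18 to 0.84, where the median over all genes tested was 0.03. It passed in 3 genes, all above 0, against a background of 0.305% of all genes tested, and 61 genes had an unadjusted p under 0.05, against 12.8% of all genes tested that were above 0 at that level. The 3 were Mrps36 (0.84 ± 0.16, limma adjusted p = 0.0467), Mrps7 (0.75 ± 0.15, adjusted p = 0.0467) and Mrpl38 (0.68 ± 0.13, adjusted p = 0.0463). In each, con/STZ was below con by more than VHLΔPT/STZ was below con. The log2 difference of VHLΔPT/STZ from VHLΔPT was 0.24 ± 0.12 in Mrps36, 0.04 ± 0.11 in Mrps7 and 0.09 ± 0.10 in Mrpl38. None of these passed, and in Mrps7 the libraries of those groups overlapped. The interaction shares its libraries with the comparisons above. Its median was also above 0 in the wider lists chosen by name and described below. It was 0.52 over 77 cytosolic ribosomal proteins, from 0.19 to 1.5. Over 77 nuclear genes of the respiratory chain and ATP synthase it was 0.46, from −0.14 to 1.6. The difference between the family and these lists was not tested. The count of 3 was 0 in 7 of the 9 fits that left out a library, con 1, con 3 and both con/STZ libraries among them; it was 3 without con library 2 and 7 without VHLΔPT/STZ library 1.

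Both subunits took part. In con/STZ, 30 of 49 genes of the large subunit and 15 of 26 of the small subunit fell, with medians of −0.48 and −0.45, against 14.1% of all genes tested that fell. Proteins with a bacterial counterpart fell in 25 of 44 genes with a median of −0.46, and mitochondria-specific proteins in 19 of 30 with the same median. In VHLΔPT, the 4 genes that passed all belonged to the large subunit, whereas the medians of large and small subunit were −0.39 and −0.40. In VHLΔPT/STZ the medians were −0.28 and −0.25. These counts follow the place of each protein in the ribosome, so that Mrps30 and Mrps18a count with the large subunit. The difference between the classes was not tested.

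The 3 Mrps18 paralogs descend from the same ancestor but sit at different places in the ribosome. Mrps18a, in the large subunit (chr17:46110986-46128910, + strand), had 1725, 1988 and 2387 in con, 1561 and 1589 in VHLΔPT, 1310 and 1372 in con/STZ, and 1503 and 1782 in VHLΔPT/STZ. Mrps18b, in the small subunit (chr17:35910379-35916389, - strand), had 646, 583 and 616 in con, 580 and 545 in VHLΔPT, 507 and 433 in con/STZ, and 519 and 531 in VHLΔPT/STZ. Mrps18c, which holds the place of bacterial S18 (chr5:100798627-100804471, + strand), had 667, 745 and 985 in con, 487 and 515 in VHLΔPT, 698 and 539 in con/STZ, and 575 and 776 in VHLΔPT/STZ. In con/STZ, Mrps18a and Mrps18b fell (−0.59 ± 0.14, limma adjusted p = 0.0154, and −0.39 ± 0.11, adjusted p = 0.0266), and Mrps18c did not pass (−0.36 ± 0.20, adjusted p = 0.194). In VHLΔPT, Mrps18c had the lowest log2 change of the family, at −0.65 ± 0.20 (adjusted p = 0.0859), and Mrps18b, at −0.13 ± 0.11, was among those nearest to con (adjusted p = 0.467).

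Mrpl45, through which the ribosome is held at the inner membrane (chr11:97315716-97329920, + strand), had 1333, 1513 and 1660 in con, 1154 and 1202 in VHLΔPT, 1163 and 1074 in con/STZ, and 1235 and 1482 in VHLΔPT/STZ. It fell in con/STZ (−0.42 ± 0.12, limma adjusted p = 0.0307), and of its VHLΔPT/STZ libraries, library 2 reached into con and library 1 lay below it. Mrps16, mutated in a human disorder of mitochondrial translation (chr14:20389304-20393634, - strand), had 956, 1051 and 1362 in con, 777 and 835 in VHLΔPT, 733 and 867 in con/STZ, and 836 and 1057 in VHLΔPT/STZ. Its con/STZ libraries lay below con, and the difference did not pass (−0.48 ± 0.17, adjusted p = 0.0619).

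The other 2 genes with the highest values per kilobase, both with bacterial counterparts, followed the family. Mrps21 (chr3:95862634-95871519, - strand) had 2030, 1944 and 2577 in con, 1515 and 1507 in VHLΔPT, 1525 in each con/STZ library, and 1625 and 1965 in VHLΔPT/STZ, with a log2 change in con/STZ of −0.51 ± 0.13 (limma adjusted p = 0.0235). Mrpl34 (chr8:71464959-71465747, + strand), at 607 bases the shortest of the family, had 1439, 1503 and 1881 in con, 1023 and 1198 in VHLΔPT, 1145 and 1214 in con/STZ, and 1151 and 1396 in VHLΔPT/STZ. It passed in con/STZ (−0.44 ± 0.14, adjusted p = 0.0481), and with the trend on gene length taken out its difference turned to 0.13 and no longer passed.

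Gene length moved with these comparisons. The merged exons of the family had a median length of 2394 bases, from 607 to 8631, against 4307 for all genes tested, and 57 of the 76 genes were shorter than that. Across the 14420 genes with a length, the deviation of each library from the gene's mean over the 9 libraries correlated with log10 length at r between −0.46 and −0.19 in con, between 0.19 and 0.27 in VHLΔPT and con/STZ, and at 0.18 and −0.06 in the libraries 1 and 2 of VHLΔPT/STZ. Shorter genes thus read lower in VHLΔPT and con/STZ in general. Genes of different lengths come from the same libraries, so these correlations are descriptions.

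Within each class of length, the median of the family also lay below that of all genes. Among genes of 1000 to 1500 bases, the median log2 change in con/STZ was −0.53 for the 11 members and −0.39 for all 673 genes. Between 3000 and 5000 bases it was −0.40 for 16 members and −0.07 for all 4043 genes, and above 5000 bases it was −0.42 for 14 members, 8 of which fell, and 0.22 for all 5960 genes, of which 5.67% fell. In VHLΔPT the medians above 5000 bases were −0.34 for members and 0.19 for all. With the trend on length subtracted from each library before the fit, 23 genes fell in con/STZ, against 10.6% of the 14420 genes, and Mrps6 rose, the median being −0.25. The median was then −0.21 in VHLΔPT and −0.14 in VHLΔPT/STZ, and no gene passed in either, with 32 and 20 lower at an unadjusted p under 0.05, against 9.91% and 11.2% of those genes.

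**Figure D4:**
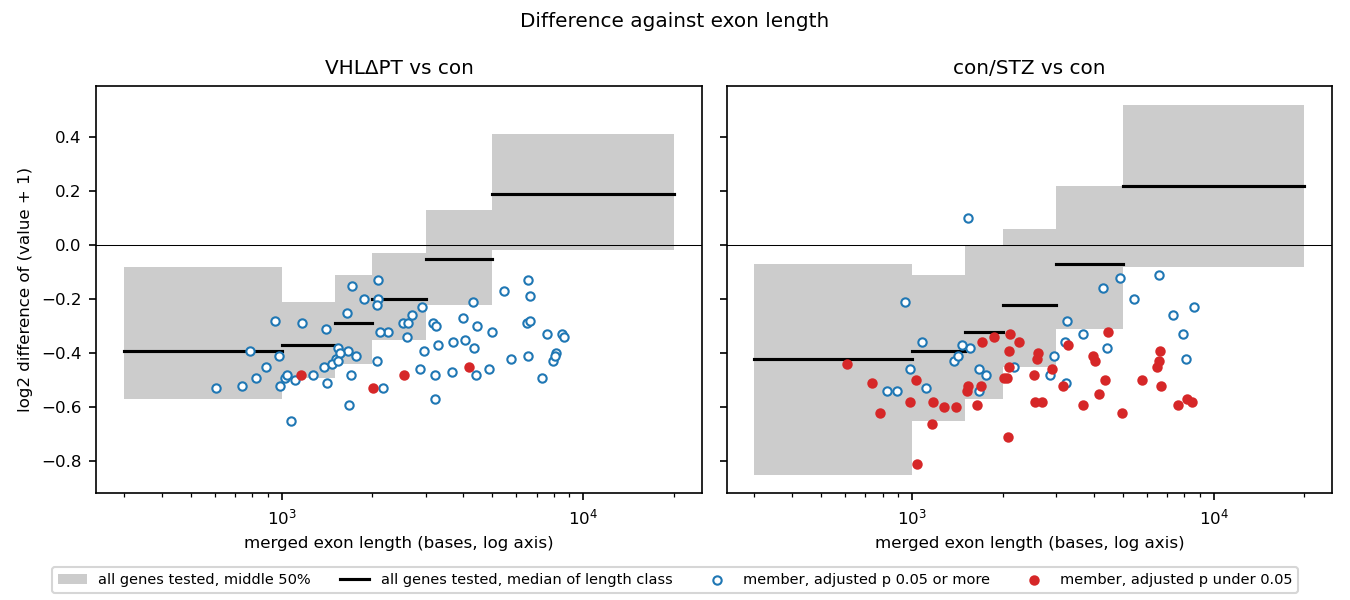
Log2 difference of the 76 genes against merged exon length on a log axis, in VHLΔPT vs con and con/STZ vs con, over the median (black line) and the middle 50% (grey) of all genes tested in each length class. In genes over 5000 bases the members have medians of −0.34 and −0.42, and all genes have 0.19 and 0.22.

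The libraries of a group differed from each other over the whole family. The median deviation of the 76 genes from the con mean was −0.13, −0.06 and 0.19 in the con libraries, −0.43 and −0.35 in VHLΔPT, −0.48 and −0.46 in con/STZ, and −0.38 and −0.18 in VHLΔPT/STZ. Con library 3 held the highest con value in 71 genes, and VHLΔPT/STZ library 2 exceeded library 1 in 67. Without con library 3 the median changes were −0.27 in VHLΔPT, −0.36 in con/STZ, −0.15 in VHLΔPT/STZ, and 0.46 for the interaction. Con library 3 also had the lowest length correlation of the con libraries (−0.46), and VHLΔPT/STZ library 2 had a lower one than library 1; the part of length in the difference between libraries was not tested. Con/STZ library 2 also held the transcript Xist, which marks an inactive X chromosome, at 3205, with at most 6.22 elsewhere, although all mice were labelled male; without it the median in con/STZ was −0.48, and the median of that library alone was −0.46.

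The labels were checked on their targets and the tissue. Vhl itself read 555, 522 and 528 in con, 434 and 470 in VHLΔPT, 501 and 527 in con/STZ, and 516 in each VHLΔPT/STZ library, so that VHLΔPT was lowest and VHLΔPT/STZ was not set apart from con/STZ. These counts cover the whole gene and all cells of the cortex and check a deletion in the early proximal tubule only in part. All 8 markers of the proximal tubule were present, with summed values of 291144 to 313783 in con, 319959 to 373687 in VHLΔPT, 329370 to 378615 in con/STZ, and 320895 to 359590 in VHLΔPT/STZ. In con/STZ, 5 of the 8 rose and 1 fell. Summed macrophage markers lay between 3399 and 3773 in con and between 1943 and 2329 in con/STZ, where 4 of the 5 genes fell. Other sums were higher in con/STZ than in con. They were 107649 to 121030 against 63524 to 72335 for the thick ascending limb (2 of 4 markers rose). For the distal convoluted tubule they were 18685 to 23164 against 10628 to 11904 (2 of 3). Principal cells had 19647 to 21477 against 8133 to 15024 (2 of 4), and podocytes 8345 to 9410 against 6496 to 6894 (1 of 4). Intercalated cells had 5121 to 5640 against 4763 to 5084 (1 of 4), and endothelium 7162 to 7211 against 6136 to 6685 (0 of 5). Lymphocyte sums were lower, at 10.0 to 12.2 against 37.2 to 50.1, and 1 of 4 markers fell. The sums not listed overlapped con. Of the 14437 genes tested, 2040 rose and 2042 fell in con/STZ. The part of these cell types in the family's values was not tested. Summed values of the family ran from 95138 to 118816 in con and from 76153 to 76953 in con/STZ. In RNA of whole tissue, fewer cells of a type and less RNA per cell cannot be told apart.

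The other genes of mitochondrial translation were read from lists. The counts of genes that fell in con/STZ stand beside 14.1% of all genes tested, or 10.6% with the trend on length taken out. Of the 5 proteins of the mitochondrial ribosome that carry other names, 1 fell in con/STZ (median −0.27), and 2 fell with the length trend taken out (median −0.24). The 1 was Gadd45gip1, also known as CRIF1, a large-subunit protein near the exit tunnel. It fell in con/STZ (−0.62 ± 0.11, limma adjusted p = 0.00675), VHLΔPT (−0.73 ± 0.11, adjusted p = 0.0329) and VHLΔPT/STZ (−0.70 ± 0.11, adjusted p = 0.0422). Ptcd3, a pentatricopeptide repeat protein of the small subunit, had −0.19 ± 0.09 in con/STZ (adjusted p = 0.126). Mrpl58, a peptide release enzyme built into the large subunit, is listed under its older symbol Ict1 and so was not among the 77. It had 1079, 1292 and 1541 in con, 968 and 929 in VHLΔPT, 772 and 829 in con/STZ, and 958 and 994 in VHLΔPT/STZ. It fell in con/STZ (−0.69 ± 0.14, adjusted p = 0.00922).

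Of 15 translation factors tested, 7 fell in con/STZ and none rose, with a median of −0.35; with the length trend taken out, 5 fell, with a median of −0.28. The smallest p values were those of Tsfm, the elongation factor that recharges the mitochondrial factor Tu (−0.69 ± 0.09, limma adjusted p = 0.00269), and Oxa1l, which inserts new proteins into the inner membrane (−0.47 ± 0.08, adjusted p = 0.00613). Of 25 factors that assemble the mitochondrial ribosome, 10 fell in con/STZ and none rose (median −0.28), led by Mterf4 (−0.70 ± 0.11, adjusted p = 0.00459) and Rnmtl1, a methyltransferase of the large ribosomal RNA (−0.50 ± 0.11, adjusted p = 0.0109). With the length trend taken out, 4 of the 25 fell and the median was −0.23. Of 16 mitochondrial tRNA synthetases, which load the tRNAs with amino acids, 6 fell and 1, Lars2, rose in con/STZ, the median being −0.29; with the length trend taken out, 8 fell and none rose (median −0.36). Rars2 (−0.60 ± 0.08, adjusted p = 0.00306) and Fars2 (−0.51 ± 0.09, adjusted p = 0.00579) had the smallest p there. Lars2 had 6552, 8367 and 10164 in con, 10396 and 10413 in VHLΔPT, 10862 and 21775 in con/STZ, and 11074 and 11421 in VHLΔPT/STZ. Only con/STZ library 2 was far from the rest, and the log2 change of 0.90 ± 0.27 (limma adjusted p = 0.0371) became 0.40 ± 0.22 without it (adjusted p = 0.25).

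Genes of mitochondrial DNA expression and biogenesis showed no common direction. Of 16 tested, 1 fell and 2 rose in con/STZ, and the median was 0.02; with the length trend taken out, 2 fell and 1 rose (median −0.07). Ppargc1a, the coactivator PGC-1α that drives the making of mitochondria, rose in con/STZ (0.91 ± 0.11, limma adjusted p = 0.00234), VHLΔPT (0.56 ± 0.11, adjusted p = 0.0434) and VHLΔPT/STZ (0.57 ± 0.11, adjusted p = 0.0495), whereas Ssbp1, which coats single-stranded mitochondrial DNA, fell in con/STZ (−0.46 ± 0.10, adjusted p = 0.0107). The other gene that rose was Yy1 (0.37 ± 0.10, adjusted p = 0.0227), a factor whose letters were searched in the promoters. Nrf1 and Gabpa, whose letters were also searched, did not pass in con/STZ. Their log2 changes were −0.12 ± 0.12 (limma adjusted p = 0.5) and 0.26 ± 0.16 (adjusted p = 0.252).

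Wider mitochondrial and ribosomal genes were chosen by name. The median log2 change in VHLΔPT was −0.36 over 77 nuclear genes of the respiratory chain and ATP synthase and −0.35 over 77 cytosolic ribosomal proteins. No gene of either list passed there in limma, against a background of 0.658%, and 46 and 38 were lower at an unadjusted p under 0.05, against 13.2% of all genes tested. With the trend on length taken out, these medians in VHLΔPT were −0.10 and −0.11. In con/STZ the medians were −0.17 and −0.24, with 2 and 7 genes that fell, shares of 77 that lie below the 14.1% of all genes tested. With the trend on length taken out the medians were 0.14 and 0.01 in con/STZ, where none fell, against 10.6% of the 14420 genes. In that fit 7 and 4 rose. The share of all genes that rose there was not computed, so these counts are not read as a rise of the lists. Whether the family differs from these lists was not tested.

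**Figure D5:**
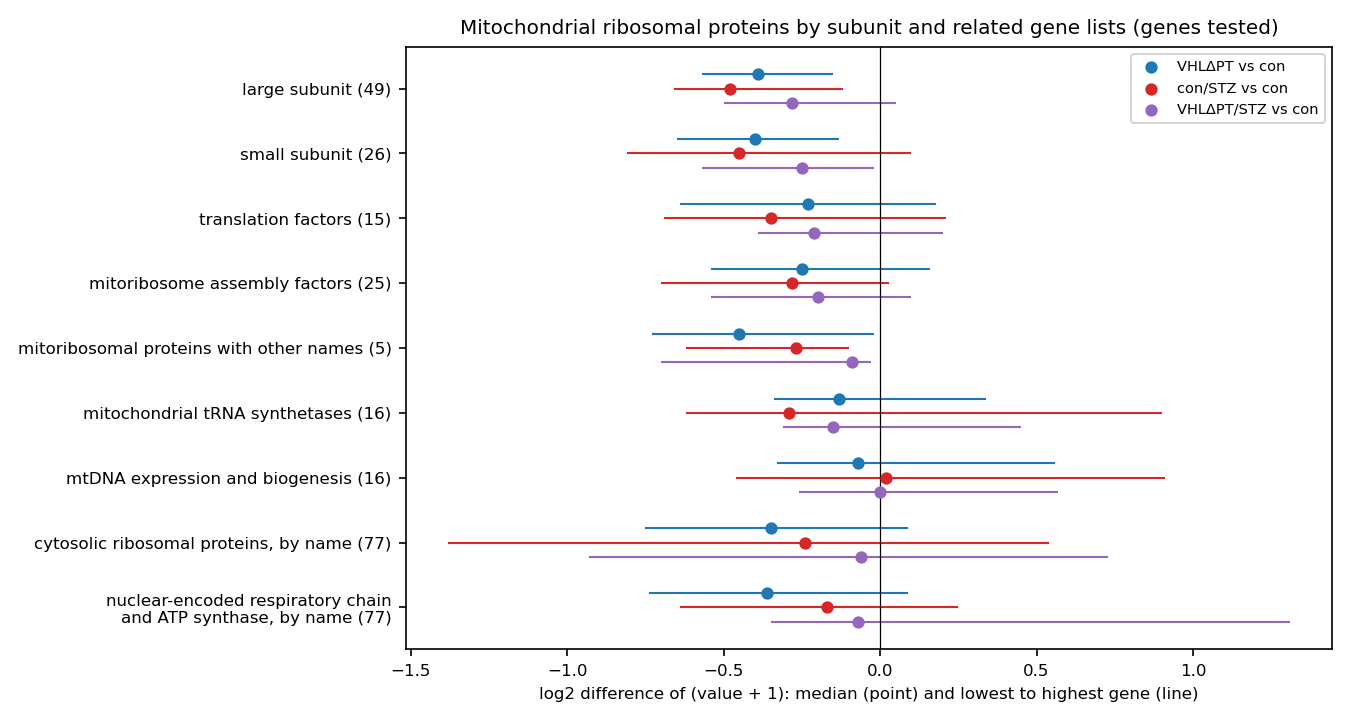
Median (point) and range (line) of the log2 difference against con in VHLΔPT, con/STZ and VHLΔPT/STZ, for the large and small subunit and for 7 related gene lists, with the number of genes tested in parentheses. The median in con/STZ is −0.48 and −0.45 in the subunits, −0.35 in translation factors, and 0.02 in genes of mitochondrial DNA expression and biogenesis.

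Neighbours in the genome were read as well. Of the 76 genes, 18 (23.7%) had an opposite-strand protein-coding gene starting up to 1000 bases upstream of their own start, against 9.43% of all protein-coding genes tested. Pairs whose 5′ ends overlap, such as Mrpl46 and Mrps11, were not counted. Of the 18 partners counted, 5 fell in con/STZ and none rose, where 14.1% of all genes tested fell. Their median log2 change was −0.13 in con/STZ and −0.19 in VHLΔPT. Mrpl32 and its partner Psma2, a proteasome subunit whose start lies 75 bases away, both fell in con/STZ (−0.62, limma adjusted p = 0.022, and −0.43, adjusted p = 0.0126). Mrps18b fell while Ppp1r10, 45 bases away, had 0.41 (adjusted p = 0.116). These pairs were picked after their values were seen.

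Medians by promoter letters lay close together. The median log2 change in con/STZ was −0.50 in the 16 genes with NRF1 letters, 13 of which fell. It was −0.45 in the 51 matched genes without them, 28 of which fell. The median was −0.48 with ETS letters (15 of 22 fell) and −0.45 without (26 of 45). With YY1 letters it was −0.50 (9 of 12) and without them −0.46 (32 of 55). With the GC box it was −0.45 (20 of 34) and without it −0.46 (21 of 33). With the CCAAT box it was −0.49 (17 of 26) and without it −0.44 (24 of 41). Of all genes tested, 14.1% fell. These differences were not tested.

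The strand setting of the counting is not stated, so genes that share exon bases with another gene of the table were set aside once. The exons of 27 of the 77 genes overlap those of another gene of the table, on the same strand in 4. Among the 50 genes tested that share no exon base with another gene of the table, 30 fell in con/STZ and the median was −0.47. In VHLΔPT, 2 of them fell and the median was −0.40, against the same backgrounds as above. Some of the 50, such as Mrps18c and Mrps30, share exon bases with annotated genes outside the table.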

How the data were processed

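RNA of kidney cortex was sequenced by the authors after poly(A) selection. Per the labels and the study's methods, reads were trimmed with Trim Galore 0.4, aligned to GRCm38 with STAR 2.5.2b and counted with featureCounts 1.5.2; neither the strand setting of the counting nor the software behind the quantile normalization is given in the sources used here. The deposited table holds this signal per gene and library (quantile-normalized counts, 85.12% not whole), so no count model was used; its fold changes and p-values were left out.

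Values were analysed as log2(value + 1) in limma 3.58.1 (R 4.3.3; trended variance, 5 residual degrees of freedom) with 4 group means over 9 libraries, a minimum mean of 10, and Benjamini-Hochberg adjustment over 14437 genes; the code was tested on simulated data. Exon lengths came from GENCODE M21, promoters from RefSeq. The members and lists were chosen with earlier results of these data known. Values per library are given for the genes with the smallest p (8 in con/STZ, 4 in VHLΔPT/STZ, 2 in the other contrasts, all that passed in VHLΔPT), the highest and lowest by level, the Mrps18 paralogs and 6 genes of known role. Alternatives covered pseudocount, filter, scaling, trend, library weights, replicate block, gene length, thresholds, groups in the fit and libraries left out.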

Additional observations from a re-analysis of the deposited data

Results flagged for a closer look

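By a direct test, the change with STZ differed between the genotypes in 3 genes of the family, against 0.305% of all genes tested. On the log2 scale it was −0.60 in Mrps36, −0.71 in Mrps7 and −0.58 in Mrpl38 in control mice, and 0.24, 0.04 and 0.09 in mice with Vhl deletion, where none of the 3 passed. The difference between the changes was 0.84, 0.75 and 0.68. Mrps36 belongs to the family by name only, as its product is not a ribosomal subunit. None of the 3 passed with the length correction, with no filter, without the variance trend or with the replicate block. In the fits that left out a single library, the adjusted p (limma) ran from 0.0335 to 0.165 in Mrps36, from 0.0442 to 0.166 in Mrps7 and from 0.0385 to 0.164 in Mrpl38.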

How the results depend on the processing

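Over the 18 alternatives set for single calls, 688 of 969 values kept direction and side of the threshold, and 4 of the 46 genes that fell in con/STZ (Mrpl16, Mrpl36, Mrpl38 and Mrps7) did so under all of them. The counts of genes that passed in VHLΔPT, VHLΔPT/STZ and the interaction (4, 1 and 3) became 1, 0 and 0 with no filter; 7, 2 and 7 with a filter at a mean of 50; 0, 0 and 0 without the variance trend; 23, 0 and 7 with library weights; 0, 0 and 0 with the length correction; and 58, 30 and 61 at an unadjusted p under 0.05, where VHLΔPT/STZ against con/STZ and against VHLΔPT gave 10 and 2. With only the compared groups in the fit, or with a fold over 1.5 required, VHLΔPT and VHLΔPT/STZ gave 0. In con/STZ the 46 became 24 with the length correction and 10 with the fold over 1.5. The length correction moved the medians in VHLΔPT, con/STZ, VHLΔPT/STZ and the interaction to −0.21, −0.25, −0.14 and 0.32, and the difference of Mrpl34 in con/STZ reversed to 0.13. Leaving out 1 library gave 0 to 8 genes in VHLΔPT, 7 to 52 in con/STZ, 0 in VHLΔPT/STZ in each of the 9 fits, and 0 to 7 in the interaction. Leaving out con 3, con/STZ 2 and VHLΔPT/STZ 2 together, an alternative chosen after seeing the data, gave 4 genes in con/STZ, 0 in VHLΔPT, VHLΔPT/STZ and the interaction, and an interaction median of 0.38. With these exceptions and that of the block below, the counts stayed within 1.5 times and the medians within 0.13, the SD between library medians. The cause of these changes was not tested, apart from fewer samples in a fit. Except where a share is given above, the share of all genes that passed under an alternative was not computed. The counts are therefore not read as changes of the family alone.

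The replicate numbers are shared between groups by number only: of 12 correlations between same-numbered libraries 4 were above 0.1 (−0.109 to 0.273). With the replicate number as a block, 34 genes passed in con/STZ and 0 in VHLΔPT, VHLΔPT/STZ and the interaction. The share of all genes that passed with this block was not computed.

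With 2 or 3 pools per group and no known depth, a missed threshold does not show that a gene was unchanged. Quantile normalization removes any difference in total RNA between libraries.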
